A study of Mus musculus with 21 samples.

Results

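The homeostatic transport genes of astrocytes, 9 in number, were followed in bulk RNA from the brain of GA-Camk2a mice and control mice: Slc1a2, Slc1a3, Aqp4, Kcnj10, Glul, Gja1, Gjb6, Aldh1l1 and Slc6a11. They were picked by symbol, and all 9 were found among the 64361 gene rows of the count table. GA-Camk2a mice carry a floxed transgene for GFP-tagged poly-GA, a dipeptide repeat protein made from the C9orf72 repeat, which Camk2a-Cre switches on in excitatory neurons, so the transgene is not driven in astrocytes. Control mice are labelled only as controls, and which alleles they carry is not in the labels. All mice were between 30 and 40 weeks old. The groups were control cortex (5 libraries), GA-Camk2a cortex (6), control hippocampus (4) and GA-Camk2a hippocampus (6), from 5 control mice and 6 GA-Camk2a mice, 10 of which gave both tissues. The study's text gives the numbers of control cortices and control hippocampi the other way round, and the labels were followed. The study's methods place the mice in a pair of litters, and the labels give no sex.

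Astrocytes clear what neurons release. Slc1a2 (GLT-1) and Slc1a3 (GLAST) are the glial glutamate transporters, and Glul (glutamine synthetase) turns the glutamate they take up into glutamine that is handed back to neurons. Aqp4 is the water channel of the endfeet that wrap blood vessels, where the inward rectifier potassium channel Kcnj10 (Kir4.1) buffers extracellular potassium. Gja1 (connexin 43) and Gjb6 (connexin 30) form the gap junctions that join astrocytes into a network. Slc6a11 (GAT-3) takes up GABA, and Aldh1l1, a folate enzyme, is a widely used marker of the whole astrocyte class.

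The libraries held between 1048201 and 5888102 counts (median 1975173), and each of the 9 genes had at least 15 counts in every library, so all of them passed the filter on low counts in both tissues. Levels are given as CPM, a gene's counts scaled to the total of its library, and genes are compared with each other only through differences between groups, since transcript length was not used. The GFP row, which stands for the transgene, held 0 to 4 counts a library, with 2 each in the control cortices of mice 37 and 38 and 0 in 4 of the 6 GA-Camk2a hippocampi, so it gives no check of the genotype labels. The cortex of control mouse 31 was the highest of the 5 control cortices for 7 of the 9 genes, and results that rest on it are given with and without it. The cortex of GA-Camk2a mouse 35 was the lowest of its 6 for 7 genes, and the hippocampus of control mouse 37 the lowest of its 4 for 6 genes. Hippocampal libraries varied in the summed level of 6 ependymal and choroid plexus markers, from 1828 to 32682 CPM in controls and from 1906 to 55491 CPM in GA-Camk2a mice. In cortical libraries these markers were at 1601 to 2452 CPM in controls and at 1696 to 8190 CPM in GA-Camk2a mice. Markers of striatum, summed over 7 genes, were at 843 to 1360 CPM in control cortex and at 239 to 554 CPM in GA-Camk2a cortex. Less striatal tissue in the sample and lower levels of these genes in the cells cannot be told apart here.

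Slc1a3 and Slc1a2 serve the same uptake, and Slc1a3 was called between genotypes while Slc1a2 was not. Gjb6 had the largest difference in the cortex. The 250 bases before the start of these 3 genes are shown. They are RefSeq sequences of build GRCm38.p6, on the strand of the gene. The counts themselves were made on GRCm39, and no read positions were used here. Capitals mark a match to TTCNNNGAA, the letters bound by STAT factors, which act in reactive astrocytes. Slc1a3 lies at chr15:8710808-8711057 on the minus strand, Slc1a2 at chr2:102706188-102706437 on the plus strand and Gjb6 at chr14:57133612-57133861 on the minus strand.
Slc1a3: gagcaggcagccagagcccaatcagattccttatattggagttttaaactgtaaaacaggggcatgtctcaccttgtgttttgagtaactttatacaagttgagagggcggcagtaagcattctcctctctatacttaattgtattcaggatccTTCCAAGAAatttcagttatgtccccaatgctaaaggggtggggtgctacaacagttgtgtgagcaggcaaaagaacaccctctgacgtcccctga
Slc1a2: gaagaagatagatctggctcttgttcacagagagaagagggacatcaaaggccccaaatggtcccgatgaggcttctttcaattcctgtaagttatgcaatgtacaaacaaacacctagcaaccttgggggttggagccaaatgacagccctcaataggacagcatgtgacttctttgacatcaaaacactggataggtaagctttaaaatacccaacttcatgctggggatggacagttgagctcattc
Gjb6: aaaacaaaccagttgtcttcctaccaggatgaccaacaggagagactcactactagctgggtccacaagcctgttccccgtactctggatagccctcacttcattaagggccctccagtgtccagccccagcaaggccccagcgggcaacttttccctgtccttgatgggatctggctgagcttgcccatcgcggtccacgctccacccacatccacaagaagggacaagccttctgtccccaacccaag
The start used for Slc1a3 lies 43 bases from the nearest GENCODE transcript start of that gene, and the starts of Slc1a2 and Gjb6 fall on one exactly (0 bases). Of the 8 members with a sequence in the table, all but Aqp4, Slc1a3 alone held the STAT letters, at positions -96 to -88 from the start, as TTCCAAGAA, while 7.02% of the 32851 promoters of this length held them. Searched on both strands, the NFI half-site TTGGCA (12.3% of promoters), the SOX letters ACAATG (10.7%) and ACAAAG (16.5%) and the CRE TGACGTCA (1.55%) were found in none of the 8. The AP-1 letters TGANTCA (6.75%) were found in Gja1, the E-box CAGGTG (17.2%) in Slc6a11, the CRE half-site TGACG (17.8%), which is part of TGACGTCA, in Slc1a3 and Gja1, and TATAAA (12.4%) in Slc1a3. CCAAT (33.8%) was found in 4 members and GGGCGG (32.7%) in 5. These matches describe the windows only.

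To ask how neuronal poly-GA bears on these genes, GA-Camk2a libraries were compared with control libraries within each tissue by edgeR's quasi-likelihood test with batch as a covariate, adjusted over all genes tested. In the cortex, Gjb6, Slc1a3 and Aqp4 rose and the other 6 did not pass the threshold. In the hippocampus, Aqp4, Slc1a3 and Aldh1l1 rose and the other 6 did not pass. No member fell in either tissue, beside 6.17% and 5.97% of all genes that were called lower. So 3 of 9 were called higher in each, beside 12.5% of the 13058 genes called in either direction in the cortex (6.35% higher) and 10.9% of the 14884 genes in the hippocampus (4.97% higher). At an unadjusted p under 0.05 there were 5 of 9 in the cortex (25.9% of all genes) and 6 of 9 in the hippocampus (24.7%). The median log2 fold change of the 9 genes was 0.25 in the cortex and 0.40 in the hippocampus, against -0.01 and 0.02 over all genes tested. All 9 fold changes were above 0 in the cortex and 8 in the hippocampus. Scaling libraries to the summed counts of 26 astrocyte identity genes, an alternative added after seeing the data, moved the median of all genes by -0.31 and -0.25 and the 9 genes with it, so that 4 and 6 were above 0. Their median was then -0.07 and 0.14, against -0.31 and -0.23 over all genes.

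In bulk tissue, more cells of a type and more RNA per cell cannot be told apart. Beside these differences, 11 of 13 tested reactive astrocyte genes rose in the cortex and 12 of 14 in the hippocampus. Of 8 microglia markers 6 rose in each tissue, and of 7 excitatory neuron markers 5 fell in each. The summed level of the 26 astrocyte identity genes was 2672 to 3179 CPM in control cortex and 3286 to 3863 CPM in GA-Camk2a cortex, and 2899 to 3177 CPM against 3330 to 4051 CPM in the hippocampus, without overlap between genotypes. The part of these changes, and of the striatum markers, in the differences of the 9 genes was not tested.

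**Figure D1:**
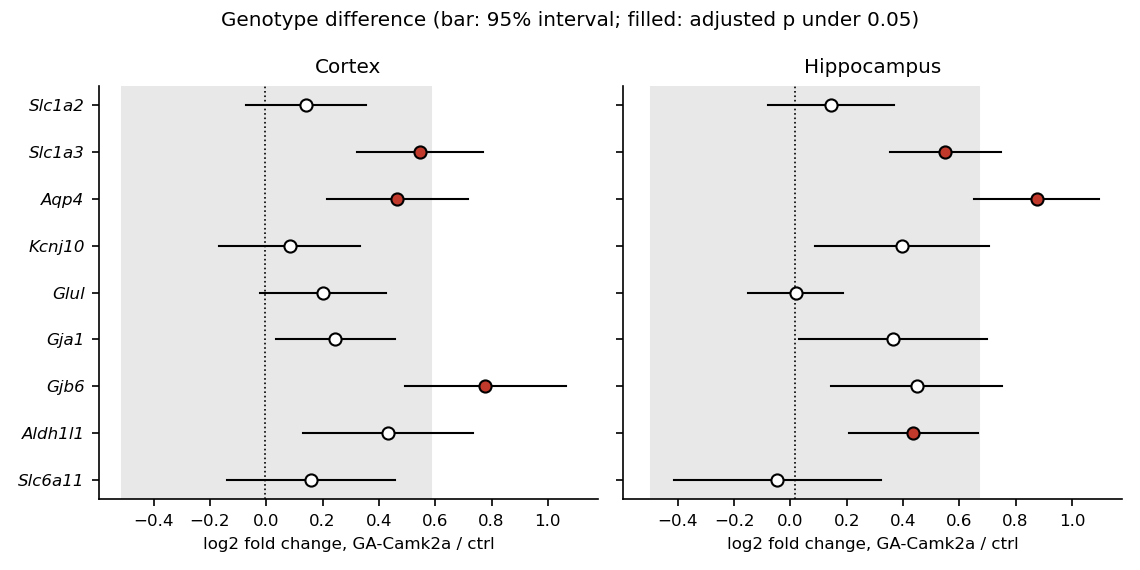
Log2 fold change of GA-Camk2a over control for each of the 9 genes in the cortex (left) and the hippocampus (right), with 95% intervals; filled points have an adjusted p under 0.05 (edgeR). The dotted line is the median of all genes tested and the grey band holds their 5th to 95th percentile; Gjb6 in the cortex and Aqp4 in the hippocampus lie beyond the band.

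Of the glutamate transporters, Slc1a3 rose in both tissues and Slc1a2 passed the threshold in neither. Slc1a3 was at 218, 218, 267, 247 and 237 CPM in the control cortices of mice 11, 20, 31, 37 and 38. In GA-Camk2a cortex it ran from 268 over a median of 352 to 429 CPM. Every GA-Camk2a library was above every control library, although the lowest of them, mouse 35 at 267.55 CPM, was next to control mouse 31 at 267.48 CPM. The log2 fold change was 0.55 ± 0.11 (SE, adjusted p = 0.00168), a 1.46-fold difference. It was 0.58 (adjusted p = 0.0144) in batch 1 alone. The call was lost in batch 2 alone (0.48, adjusted p = 0.189), which held 2 control and 2 GA-Camk2a cortices. It was also lost when scaled to astrocyte identity genes (0.23, adjusted p = 0.0976).

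In the hippocampus, Slc1a3 was at 311, 293, 292 and 267 CPM in control mice 11, 20, 31 and 37. The 6 GA-Camk2a hippocampi ran from 358 over a median of 442 to 535 CPM, again all above the controls. Slc1a3 differed there by a log2 fold change of 0.55 ± 0.09 (adjusted p = 0.00131). The call was lost in batch 1 alone (0.52, adjusted p = 0.137), and the value was 0.30, still called, when scaled to astrocyte identity genes. Groups that did not overlap in this direction made up 3.5% of all genes in the cortex and 5.6% in the hippocampus. From lowest to highest, the mean levels were 237 ± 20.98 CPM (SD) in control cortex, 291 ± 17.9 in control hippocampus, 347 ± 64.0 in GA-Camk2a cortex and 440 ± 61.6 in GA-Camk2a hippocampus. The ranges of control hippocampus and GA-Camk2a cortex overlapped.

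Slc1a2 was at 799, 729, 1226, 772 and 852 CPM in the 5 control cortices, with mouse 31 well above the rest. GA-Camk2a cortices ran from 755 over a median of 978 to 1130 CPM, inside the range of the controls. This gave a log2 fold change of 0.14 ± 0.10 (adjusted p = 0.417) with a 95% interval from -0.07 to 0.35, and 0.25 ± 0.09 (adjusted p = 0.101) without control mouse 31. In the hippocampus, control levels were 1205, 1004, 1103 and 955 CPM, and GA-Camk2a levels ran from 1038 over a median of 1142 to 1476 CPM. The groups overlapped, and the log2 fold change was 0.15 ± 0.10 (adjusted p = 0.428) with an interval from -0.08 to 0.37, and between 0.07 and 0.20 when 1 library was left out.

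The ratio of Slc1a2 to Slc1a3 within a library, which does not depend on library size, compares the responses of the 2 transporters. This pair and the other ratio pairs were chosen with earlier results of these data known. The adjustment over 12 ratio tests does not cover that choice. The Slc1a2 to Slc1a3 ratio was lower in GA-Camk2a mice in both tissues. In the cortex, the log2 ratio was 1.86 ± 0.21 (SD, n = 5) in controls and 1.49 ± 0.14 (n = 6) in GA-Camk2a mice, a difference of -0.37 (exact two-sided permutation test over 462 splits, p = 0.00649, adjusted p = 0.0433 over 12 ratio tests). Of the 6 GA-Camk2a cortices 5 were below every control. In the hippocampus the log2 ratio was 1.87 ± 0.08 (n = 4) in controls and 1.46 ± 0.17 (n = 6) in GA-Camk2a mice, a difference of -0.41, and all 6 were below every control (exact permutation test over 210 splits, p = 0.00952, adjusted p = 0.0433). Without control mouse 31 the cortical difference was -0.29, and within batch 1 and batch 2 it was -0.45 and -0.26. The hippocampal difference was -0.41 in each batch. Each of these calls lay close to the threshold: when 1 of the 21 libraries was left out at a time, each held in 7 cases and was lost in the rest, with adjusted p between 0.0416 and 0.103. Leaving out a library of the other tissue moves only the adjustment over the 12 tests. The difference itself stayed between -0.43 and -0.29 in the cortex and between -0.46 and -0.36 in the hippocampus.

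Glul did not pass the threshold in either tissue. Its cortical control levels were 313, 315, 453, 323 and 303 CPM, with mouse 31 far above the others, and GA-Camk2a cortices ran from 311 over a median of 401 to 468 CPM. Glul differed by a log2 fold change of 0.20 ± 0.11 (adjusted p = 0.243), and 0.31 ± 0.10 (adjusted p = 0.0658) without control mouse 31. In the hippocampus the 4 control libraries lay between 365 and 377 CPM, and the GA-Camk2a libraries between 329 and 423 CPM. Its log2 fold change was 0.02 ± 0.08 (adjusted p = 0.920) with an interval from -0.15 to 0.19. The log2 ratio of Glul to Slc1a2 within a library differed by 0.05 (adjusted p = 0.662) in cortical libraries and by -0.12 (adjusted p = 0.464) in hippocampal ones, by exact permutation tests.

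**Figure D2:**
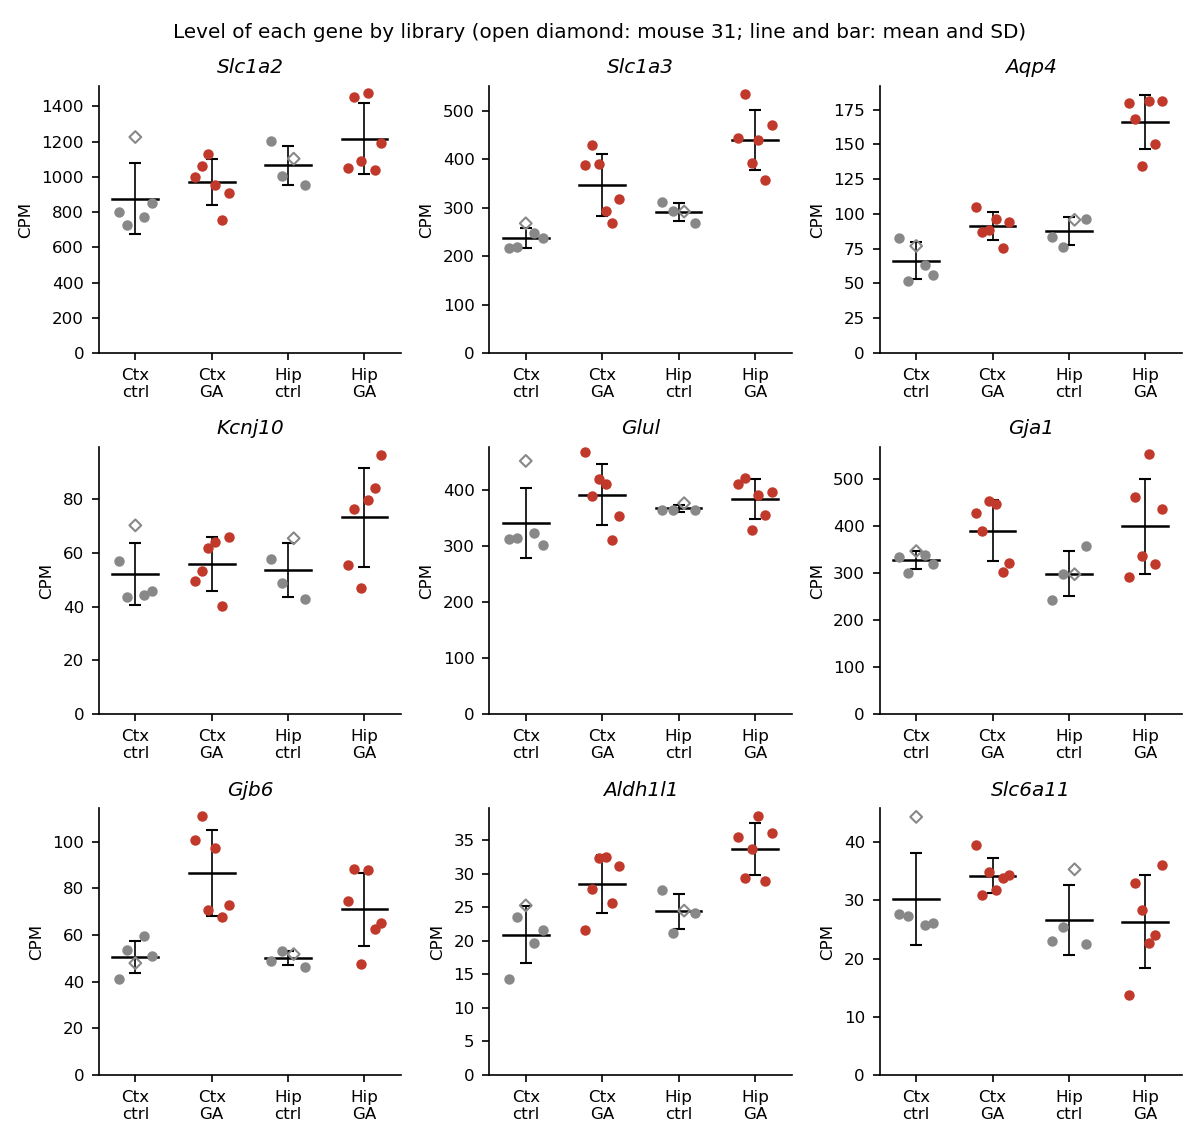
Level of each of the 9 genes in CPM (linear axis from 0) in every library of control (ctrl, grey) and GA-Camk2a (GA, red) cortex (Ctx) and hippocampus (Hip); lines and bars are the mean and SD, and open diamonds are control mouse 31. Slc1a3 separates the genotypes in both tissues, Gjb6 in the cortex, and Aqp4 and Aldh1l1 in the hippocampus, while Slc1a2, Glul and Slc6a11 overlap.

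Aqp4, the endfoot water channel, rose in both tissues. Control cortices were at 83.0, 51.8, 76.9, 63.3 and 56.2 CPM for mice 11, 20, 31, 37 and 38. GA-Camk2a cortices ran from 75.8 over a median of 91.1 to 105 CPM, and 5 of 6 were above every control. The log2 fold change was 0.47 ± 0.12 (adjusted p = 0.0128), and it no longer passed the threshold without control mouse 38 (0.38, adjusted p = 0.0551) or with all counts thinned to the depth of the smallest library (0.41, adjusted p = 0.0599). The call was also lost in batch 1 alone (0.38, adjusted p = 0.137), in batch 2 alone (0.61, adjusted p = 0.156) and when scaled to astrocyte identity genes (0.15, adjusted p = 0.324).

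In the hippocampus, control levels of Aqp4 were 83.5, 75.9, 95.7 and 96.4 CPM. GA-Camk2a levels ran from 135 over a median of 174 to 181 CPM, and all 6 were above every control by a wide gap. The log2 fold change of 0.88 ± 0.10 (adjusted p = 8.43e-05) was a 1.83-fold difference, with an interval from 0.65 to 1.10. Leaving out any 1 library kept it between 0.80 and 0.93, and in batch 1 alone it was 0.83 without passing the threshold (adjusted p = 0.0740). Mean levels rose in the order of control cortex (66.2 ± 13.4 CPM, SD), control hippocampus (87.9 ± 9.95), GA-Camk2a cortex (91.1 ± 9.92) and GA-Camk2a hippocampus (166 ± 19.4). The ranges of control hippocampus and GA-Camk2a cortex overlapped, and GA-Camk2a hippocampus lay above the other 3 groups. Ependymal cells also express Aqp4. None of the ependymal and choroid plexus markers passed the threshold between genotypes, of 5 tested in the cortex and 6 in the hippocampus, with medians of 0.44 and 0.56 on the log2 scale, and at an unadjusted p under 0.05 there were 0 and 1.

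Kcnj10, the potassium channel of the same endfeet, passed the threshold in neither tissue. It was at 57.2, 43.6, 70.3, 44.6 and 45.7 CPM in control cortex and at 40.2 to 66.1 CPM in GA-Camk2a cortex, with a log2 fold change of 0.08 ± 0.12 (adjusted p = 0.718) and 0.18 ± 0.12 without control mouse 31. In the hippocampus, control levels were 57.8, 48.7, 65.5 and 42.9 CPM, and GA-Camk2a levels ran from 46.9 over a median of 78.1 to 96.7 CPM. Kcnj10 differed by a log2 fold change of 0.40 ± 0.15 (adjusted p = 0.0979), and 0.48 (adjusted p = 0.0321) without GA-Camk2a mouse 30, the lowest of its group. The within-library log2 ratio of Aqp4 to Kcnj10 was 0.37 higher in GA-Camk2a cortex (exact permutation test, p = 0.0173, adjusted p = 0.0519) and 0.49 higher in GA-Camk2a hippocampus (p = 0.0524, adjusted p = 0.1002). Neither passed after adjustment. Within batch 1 and batch 2 the value was 0.25 and 0.62 in the cortex and 0.61 and 0.37 in the hippocampus. The cortical ratio did pass with a pseudocount of 5 CPM (0.35, adjusted p = 0.0457), without the cortex of GA-Camk2a mouse 30 (0.41, adjusted p = 0.0476) and without the hippocampus of GA-Camk2a mouse 41 (adjusted p = 0.0416), by exact permutation tests.

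Of the gap junction proteins, Gjb6 rose in the cortex and Gja1 passed the threshold in neither tissue. Gjb6 was at 41.02, 53.6, 48.0, 59.7 and 51.0 CPM in control cortex, and ran from 67.6 over a median of 85.1 to 111 CPM in GA-Camk2a cortex. The groups did not overlap. The log2 fold change of 0.78 ± 0.14 (adjusted p = 0.000565), a 1.72-fold difference, was the largest of the 9 in the cortex and stayed between 0.69 and 0.89 when any 1 library was left out. It was 0.53 in batch 2 alone, where the call was lost (adjusted p = 0.255), and 0.47, still called, when scaled to astrocyte identity genes. In the hippocampus, controls were at 49.0, 53.3, 51.9 and 46.5 CPM and GA-Camk2a libraries ran from 47.8 over a median of 70.1 to 88.2 CPM. Mouse 30 was the GA-Camk2a library inside the control range. In that tissue the log2 fold change was 0.45 ± 0.14 (adjusted p = 0.0575), 0.54 (adjusted p = 0.00760) without mouse 30, and it passed in 6 of 14 other alternatives: DESeq2 with and without batch (adjusted p = 0.0472 and 0.0439), upper quartile scaling (0.0491), total counts (0.0456), a minimum count of 30 (0.0436) and thinned counts (0.0247).

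Gja1 was at 334, 300, 347, 339 and 319 CPM in control cortex and ran from 302 over a median of 409 to 452 CPM in GA-Camk2a cortex, where 4 of 6 libraries were above every control. Its log2 fold change there was 0.25 ± 0.10 (adjusted p = 0.126), and 0.33 (adjusted p = 0.0398) without GA-Camk2a mouse 35. In the hippocampus, controls were at 242, 297, 297 and 358 CPM and GA-Camk2a libraries between 292 and 553 CPM, with a log2 fold change of 0.37 ± 0.16 (adjusted p = 0.159). It was 0.22 without GA-Camk2a mouse 34, and passed with thinned counts (0.44, adjusted p = 0.0478). The within-library log2 ratio of Gja1 to Gjb6 fell in the cortex, from 2.68 ± 0.23 (SD, n = 5) to 2.17 ± 0.28 (n = 6), and 5 of the 6 transgenic cortices lay under the lowest control (exact permutation test, p = 0.0108, adjusted p = 0.0433). It was -0.62 within batch 1 and -0.36 within batch 2. The cortical call held in 7 of 21 cases with 1 library left out, with differences from -0.61 to -0.43. In the hippocampus the ratio differed by -0.07 (exact permutation test, p = 0.729). Whether the ratio shifted by a different amount in the 2 tissues was not tested.

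**Figure D3:**
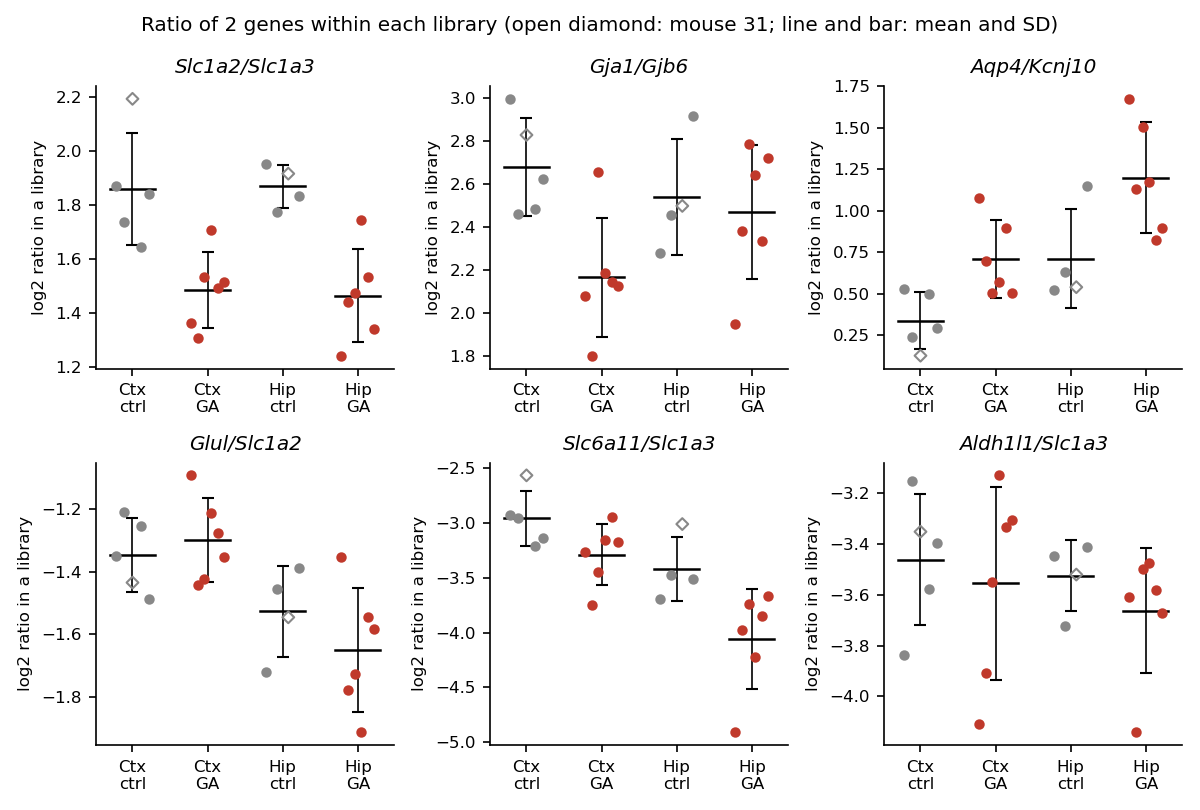
Log2 ratio of 2 of the genes within each library, from CPM with 1 CPM added, for 6 pairs in control (ctrl, grey) and GA-Camk2a (GA, red) cortex (Ctx) and hippocampus (Hip); lines and bars are the mean and SD, and open diamonds are control mouse 31. Slc1a2/Slc1a3 lies lower in GA-Camk2a mice in both tissues and Gja1/Gjb6 in the cortex.

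Aldh1l1, the class marker, rose in the hippocampus, from 27.6, 21.2, 24.5 and 24.2 CPM in controls to a range of 29.0 to 38.6 CPM with a median of 34.6. All 6 GA-Camk2a libraries were above every control. The log2 fold change was 0.44 ± 0.11 (adjusted p = 0.0155), and the call was lost without control mouse 20 (0.40, adjusted p = 0.0738) or control mouse 37 (0.39, adjusted p = 0.0729), with no filter (0.36, adjusted p = 0.305) and with thinned counts (0.37, adjusted p = 0.220). It was lost too in batch 1 alone (0.44, adjusted p = 0.312), in batch 2 alone (0.42, adjusted p = 0.233) and when scaled to astrocyte identity genes (0.19, adjusted p = 0.220). In the cortex, controls were at 14.3, 23.6, 25.3, 19.7 and 21.6 CPM and GA-Camk2a libraries ran from 21.6 over a median of 29.4 to 32.5 CPM. Aldh1l1 there had a log2 fold change of 0.43 ± 0.15 (adjusted p = 0.0557), close to the hippocampal value. It passed without control mouse 20 (0.49, adjusted p = 0.0400) or GA-Camk2a mouse 16 (0.49, adjusted p = 0.0395), and also with upper quartile scaling, a minimum count of 30, limma-voom or all 21 libraries in one fit (adjusted p = 0.0393, 0.0411, 0.0449 and 0.0201). The within-library log2 ratio of Aldh1l1 to Slc1a3 differed by -0.09 in the cortex and -0.14 in the hippocampus (exact permutation tests, adjusted p = 0.715 and 0.527).

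Slc6a11, the GABA transporter, passed the threshold in neither tissue. Control cortices were at 27.7, 27.2, 44.3, 25.8 and 26.0 CPM, and GA-Camk2a cortices lay between 30.95 and 39.5 CPM, below control mouse 31 and above the other 4 controls. This was a log2 fold change of 0.16 ± 0.14 (adjusted p = 0.529), and 0.37 ± 0.13 (adjusted p = 0.0860) without that library. In the hippocampus, controls were at 23.1, 25.5, 35.3 and 22.6 CPM and GA-Camk2a libraries spread from 13.8 over a median of 26.2 to 36.03 CPM. Slc6a11 there had a log2 fold change of -0.05 ± 0.17 (adjusted p = 0.912) with an interval from -0.41 to 0.32. The within-library log2 ratio of Slc6a11 to Slc1a3 differed by -0.33 in cortical libraries (p = 0.0584, adjusted p = 0.1002) and by -0.64 in hippocampal ones (p = 0.0286, adjusted p = 0.0686; exact permutation tests). The cortical value was -0.50 within batch 1, -0.02 within batch 2 and -0.23 without control mouse 31. The hippocampal ratio passed with a pseudocount of 5 CPM (-0.62, adjusted p = 0.0457) and without GA-Camk2a mouse 41 (-0.72, adjusted p = 0.0416), by the same tests. Of the 6 GA-Camk2a hippocampi 5 lay under the lowest control.

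To ask whether the genotype difference itself differed between tissues, the interaction was tested over all 21 libraries. None of the 9 genes passed edgeR's adjusted threshold, nor did any with the mouse as a block or with DESeq2, beside 0.4% of 14751 genes tested. At an unadjusted p under 0.05 there was 1 (10% of all genes), Aqp4, whose log2 difference was 0.39 ± 0.16 (adjusted p = 0.376) with an interval from 0.06 to 0.72. Gjb6 was at -0.34 ± 0.21 (adjusted p = 0.609), between -0.42 and -0.21 when 1 library was left out and at -0.11 with thinned counts. Slc1a3, at -0.02 ± 0.15, had an interval from -0.32 to 0.29. That Gjb6 passed in the cortex and Aldh1l1 in the hippocampus is therefore not shown to be a difference between the tissues.

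Hippocampus and cortex were also compared within each genotype, on the same libraries. In control mice, Aqp4 alone was called, 0.37 ± 0.12 higher in the hippocampus on the log2 scale (adjusted p = 0.0342), beside 18.4% of genes called (9.88% higher). This call was lost with the mouse as a block (0.32, adjusted p = 0.0607) and without control cortex 20, 37 or 38 or control hippocampus 31 or 37. Slc1a2 was at 0.26 ± 0.12 (adjusted p = 0.138), and was called higher without control cortex 31 (0.36, adjusted p = 0.0225), with no filter (0.30, adjusted p = 0.0443) and with limma-voom (0.32, adjusted p = 0.0196). In GA-Camk2a mice, where 35.3% of genes were called (17.4% higher and 18% lower), Aqp4 was 0.76 ± 0.10 higher in the hippocampus (adjusted p = 4.79e-06), with every hippocampus above every cortex, as for 9.27% of genes. Gjb6 was lower there by 0.42 (-0.42 ± 0.14, adjusted p = 0.0170) and Slc6a11 by 0.56 (-0.56 ± 0.16, adjusted p = 0.00906). With the mouse as a block, Slc1a3 was also called higher (0.22 ± 0.08, adjusted p = 0.0390), and it was called in 5 of the fits that left out 1 library. Slc1a2, at 0.23 ± 0.10 (adjusted p = 0.0758), was called with no filter (adjusted p = 0.0367), with limma-voom (adjusted p = 0.0481) and in 4 of the fits that left out 1 library. The call of Gjb6 was lost without GA-Camk2a cortex 16 (-0.36, adjusted p = 0.0582) or 23 (-0.31, adjusted p = 0.0764), or without GA-Camk2a hippocampus 30 (-0.28, adjusted p = 0.105) or 41 (-0.36, adjusted p = 0.0539). Ependymal and choroid plexus markers moved with the tissue as well, with 5 of 6 higher in control hippocampus and 6 of 6 in GA-Camk2a hippocampus. Their part in the Aqp4 difference was not tested.

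The other genes of astrocyte transport, from lists chosen by role, were described in the same fits. Of 20 tested transporters and channels, 6 rose in the cortex and 4 in the hippocampus, and none fell, with median log2 fold changes of 0.27 and 0.28. The urea transporter Slc14a1 rose by 1.42 ± 0.18 in the cortex (adjusted p = 8.76e-06) and 1.04 ± 0.17 in the hippocampus (adjusted p = 0.00113). The mitochondrial glutamate carrier Slc25a18 rose by 0.70 ± 0.14 (adjusted p = 0.00215) and 0.93 ± 0.10 (adjusted p = 3.27e-05). The zinc transporter family member Slc39a12 rose in the cortex (0.49 ± 0.11, adjusted p = 0.00525) and was at 0.43 ± 0.15 in the hippocampus (adjusted p = 0.0916).

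A further list joined endfoot genes with those of the dystrophin complex, the scaffold in which Aqp4 sits. Of these, 4 of 11 were called higher in the cortex and 2 of 12 in the hippocampus, with medians of 0.31 and 0.22. All of these calls are genes named below, and no gene of the dystrophin complex itself was called between genotypes. Mlc1, a membrane protein of perivascular endfeet, rose by 0.77 ± 0.14 and 0.79 ± 0.11 (adjusted p = 0.000751 and 0.000229). Gpr37l1, an astrocyte receptor, rose by 0.46 ± 0.09 and 0.45 ± 0.10 (adjusted p = 0.00114 and 0.00727). Hepacam, the partner of Mlc1 at astrocyte junctions, and the claudin Cldn10 rose in the cortex (0.40 ± 0.11 and 0.47 ± 0.11, adjusted p = 0.0201 and 0.00699) and were at 0.40 ± 0.12 and 0.19 ± 0.12 in the hippocampus (adjusted p = 0.0501 and 0.378).

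Among 6 other connexins and pannexins tested in the cortex, Gjb2 (connexin 26) rose by 1.26 ± 0.21 (adjusted p = 0.000217), from 6.08 to 9.99 CPM in controls to 14.4 to 26.2 CPM. In the hippocampus it was at 0.71 ± 0.24 (adjusted p = 0.0732), and the neuronal Panx2 fell by 0.58 (adjusted p = 0.0373), the 1 call of 7 tested there.

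The genes of the glutamate, glutamine and GABA cycle outside the 9 did not share 1 direction in the hippocampus, where 3 of 16 rose and 2 fell. The vesicular glutamate transporter Slc17a7 of excitatory neurons fell by 0.86 (adjusted p = 1.57e-05), with an interaction of -0.60 ± 0.14 (adjusted p = 0.0389), and the aspartate aminotransferase Got1 by 0.34 (adjusted p = 0.0152), while the GABA synthesising enzyme Gad2 rose by 0.40 ± 0.10 (adjusted p = 0.0150). The medians of this list were -0.03 in the cortex and 0.10 in the hippocampus.

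**Figure D4:**
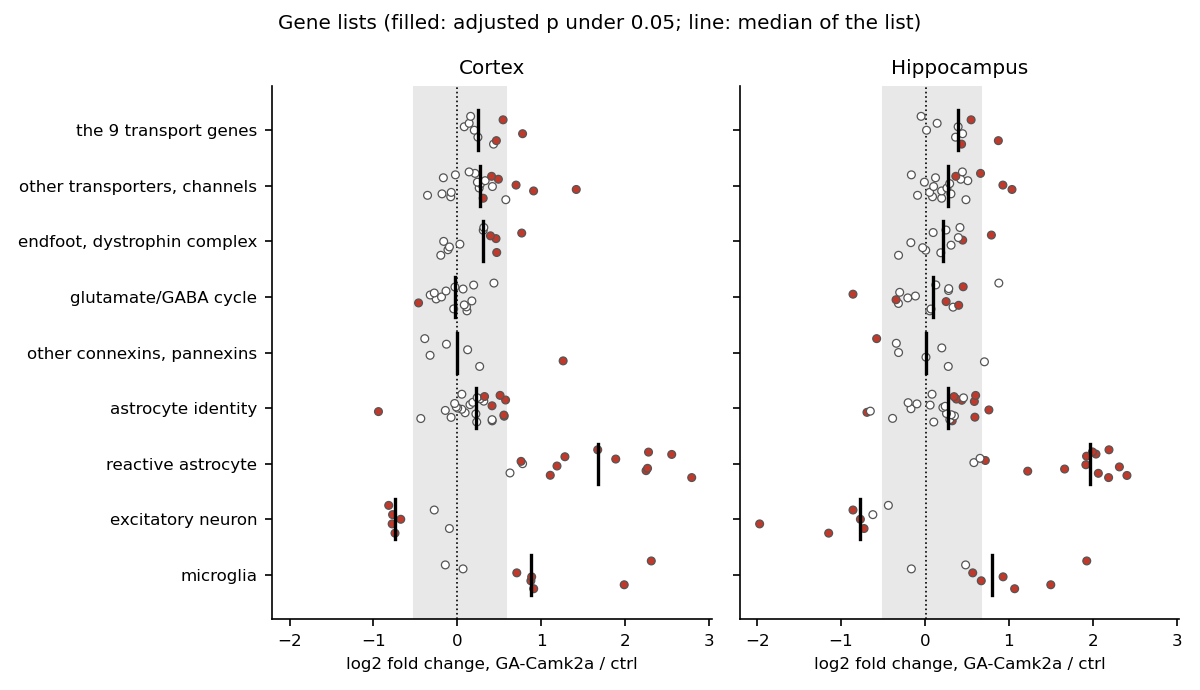
Log2 fold change of GA-Camk2a over control for the tested genes of 9 lists in the cortex (left) and the hippocampus (right), 1 point a gene; filled points have an adjusted p under 0.05 (edgeR), black lines are list medians, the dotted line is the median of all genes tested and the grey band their 5th to 95th percentile. The 9 transport genes lie between -0.05 and 0.88, and the medians of the reactive astrocyte genes are 1.67 and 1.96.

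Astrocyte identity genes moved in both directions: 7 of 25 rose and 1 fell in the cortex, and 8 of 24 rose and 1 fell in the hippocampus, with medians of 0.22 and 0.28. The gene that fell in both was Grm3, a metabotropic glutamate receptor, by 0.94 in the cortex (adjusted p = 0.00108) and 0.69 in the hippocampus (adjusted p = 0.0397). The receptors Ntsr2 and Ednrb rose in the cortex by 0.58 ± 0.09 and 0.56 ± 0.12, and in the hippocampus by 0.44 ± 0.12 and 0.60 ± 0.09. The transcriptional regulator Id4 was at 0.05 ± 0.11 in the cortex (adjusted p = 0.816) and rose by 0.76 ± 0.11 in the hippocampus (adjusted p = 0.000512). For the interaction, 0 of 25 tested genes of this list were called, so a difference between the tissues is not shown. Gfap, the intermediate filament of reactive astrocytes, rose by 2.27 ± 0.16 and 2.32 ± 0.14 (adjusted p = 3.80e-09 and 4.10e-07).

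Of the other cell types, oligodendrocyte markers were called higher for 2 of 7 in the cortex and 1 of 7 in the hippocampus, and inhibitory neuron markers for 1 and 2 of 6. None of the 5 oligodendrocyte precursor or 7 vascular markers was called by edgeR. At an unadjusted p under 0.05 there were 1 and 3 of these in the cortex and 0 and 3 in the hippocampus, and the vascular medians were 0.35 and 0.24. All 7 striatum markers fell in the cortex, with a median of -1.54, and none of the 4 tested was called in the hippocampus (1 at an unadjusted p under 0.05).

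Slc1a3 and Aqp4, the members called in both tissues, were set beside the 11138 genes with an average log2 CPM of at least 3, by the root mean square difference of centred log2 CPM over the 21 libraries. This likeness is a description, and the libraries share genotype, tissue and batch. For Slc1a3 the nearest were the adhesion receptor Adgrg1 (0.173), the microglial receptor Csf1r (0.174) and the transcription cofactor Lmo2 (0.184), against a spread of 0.338 of Slc1a3 itself. Slc1a2 came 69th, at 0.241. For Aqp4 the nearest were the membrane skeleton gene Add3 (0.198), the acyl-CoA thioesterase Acot1 (0.223) and Tmem47 (0.231).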

How the data were processed

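Bulk RNA of cortex and hippocampus was read by prime-seq, a protocol that barcodes and sequences the 3' ends of polyadenylated RNA. The authors demultiplexed the reads, mapped them to GRCm39 with zUMIs and deposited whole-number counts per gene and library, without normalization. Their processing notes also name FastQC 0.11.8, cutadapt 1.12, STAR and DESeq2 1.44. Whether molecular identifiers or reads were counted, the annotation release, and the use of introns and strand are not given in the sources used here, so counts of genes that overlap others are uncertain. Symbols were matched by Ensembl number to GENCODE (43308 of 64361 rows, 96.1% of counts). The GFP row (17 counts in all, 3.38e-05% of the total) stayed out. Unused columns numbered 0.

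Groups, mouse numbers and batches came from the labels. Batch 1 held 3 control and 4 GA-Camk2a cortices, and 2 control and 3 GA-Camk2a hippocampi. Batch 2 held 2 control and 2 GA-Camk2a cortices, and 2 control and 3 GA-Camk2a hippocampi. Both tissues were fitted separately in edgeR 4.0.16 (R 4.3.3) with TMM normalization, low genes filtered at 10 counts, and a batch term beside genotype. Genes were tested by quasi-likelihood, and p-values were adjusted by Benjamini-Hochberg over all genes tested, with a threshold of 0.05. The study used DESeq2 and stated no covariate. Interaction and tissue contrasts were fitted over all 21 libraries. A standard error is the fold change over the root of F, and intervals are at 95%. Ratios within a library used CPM plus 1, with exact two-sided permutation tests adjusted over 12 tests. Mice gave both tissues, so numbers pair animals. Deviations of the 10 pairs from their group means correlated at -0.23 to 0.30. Batch was not removed from them: pairs within a batch were at 0.17 to 0.30, and pairs across batches at -0.23 to -0.06. These correlations therefore cannot say whether pairing matters. Fits with the mouse as a block are given where they change a call. In 46 pairs of libraries within groups, 0 were identical and chi-square per degree of freedom was 2.10 to 15.1, so each counted as a replicate. Within a tissue, libraries are separate mice. Differences in depth limit precision for low genes, and counting error covers sampling only. Alternatives were other normalizations, filters, tools, thinned counts, single batches and leaving out each library, with limma 3.58.1 and DESeq2 1.42.0. The scripts were tested on simulated data.

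The 9 genes, the lists and the ratio pairs were chosen with earlier results of these data known. Named were the 9 genes, up to 4 genes a list with the lowest adjusted p in either tissue (some of these are not reported here), and for members called in both tissues the 3 genes nearest in pattern (log2 CPM with a prior count of 2).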

Additional observations from a re-analysis of the deposited data

Results flagged for a closer look

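In 60 sets of 4 to 6 libraries (9 genes and 6 ratios in 4 groups), 6 had 1 library far from the others by Dixon's test, and chance alone flags about 1 set in 20. The control cortex of mouse 31 accounted for 3 of them: Slc1a2 at 1226 CPM (next 852), Glul at 453 CPM (next 323) and Slc6a11 at 44.3 CPM (next 27.7). The hippocampus of the same mouse was highest for Glul at 377 CPM, but the next was at 365 CPM and the 4 libraries span a narrow range. In control hippocampus, mouse 37 had a log2 ratio of Aqp4 to Kcnj10 of 1.15 (next 0.63). In GA-Camk2a hippocampus, mouse 23 had a log2 ratio of Aldh1l1 to Slc1a3 of -4.14 (next -3.67).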

How the results depend on the processing

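Slc1a3 and Aqp4 in the hippocampus and Gjb6 in the cortex kept their calls under all other normalizations, filters and tools and without any 1 library. They lost it in 1 batch alone, with fewer libraries. Members called higher between genotypes numbered 0 in the cortex with batch 2 alone, 0 in the hippocampus with batch 1 alone, and 1 in the cortex when scaled to astrocyte identity genes. That scaling, chosen after seeing the data, moved the median of all genes by -0.31 in the cortex and -0.25 in the hippocampus. Glul moved by as much in the hippocampus, from 0.02 to -0.23, which made 1 member called lower and is no result about Glul. The same shift is in the scaled values of Slc1a3 and Aqp4 in the cortex and of Aldh1l1 in the hippocampus, which lost their calls. Leaving out 1 library gave 2 to 4 members higher in the cortex and 2 to 5 in the hippocampus, the last without GA-Camk2a mouse 30. For hippocampus against cortex in control mice, the replicate block by mouse and thinned counts each gave 0 members higher, and no filter and limma-voom each gave 2; leaving out 1 library gave 0 to 2. In GA-Camk2a mice the replicate block, no filter and limma-voom each gave 2 higher, and leaving out 1 library gave 1 to 4 higher and 1 to 2 lower. The block changed no call of the interaction. A pseudocount of 5 CPM gave 3 ratios past the threshold in the cortex, where there were 2, and 2 in the hippocampus, where there was 1. Leaving out 1 library gave 0 to 3 in the cortex and 0 to 2 in the hippocampus. The cause of the other changes was not tested. With counts thinned to equal depth, Aqp4 in the cortex (0.41, adjusted p = 0.0599) and Aldh1l1 in the hippocampus (0.37, adjusted p = 0.220) lost their calls, while Gjb6 (0.63, adjusted p = 0.0247) and Gja1 (0.44, adjusted p = 0.0478) gained one in the hippocampus. The counts were thinned in a single random draw, and how these values vary between draws was not tested.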

Other observations

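Other transport genes also differed between hippocampus and cortex. These genes were chosen after their values were seen. The sodium bicarbonate cotransporter Slc4a4 was higher in the hippocampus by 0.42 ± 0.12 on the log2 scale in control mice (edgeR adjusted p = 0.0179) and by 0.69 ± 0.11 in GA-Camk2a mice. Dmd and Dtna, which code for dystrophin and dystrobrevin of the endfoot complex, were higher by 0.79 ± 0.14 and 0.34 ± 0.11 in controls (adjusted p = 0.000281 and 0.0314) and by 0.83 ± 0.13 and 0.60 ± 0.10 in GA-Camk2a mice. Of the 12 endfoot and dystrophin complex genes tested, 2 were called higher in control hippocampus, and 3 higher and 1 lower in GA-Camk2a hippocampus. Of the 20 transporters and channels tested, 3 were called higher in control hippocampus, and 6 higher and 1 lower in GA-Camk2a hippocampus. Of all genes, 18.4% and 35.3% were called.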
